A study of Rattus norvegicus with 4 samples.

Results

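The cells described here were mature oligodendrocytes of the rat hippocampus that held at least 3 unique molecular identifiers (UMIs, each counting 1 captured mRNA molecule) of Klk6. They numbered 2267 of the 31638 deposited barcodes. Barcodes entered the rule as cells from 500 UMIs and 300 genes upward, provided that mitochondrial UMIs did not exceed 20%, and 28879 did so. It then asked for at least 8 UMIs of the oligodendrocyte genes Mag, Mog, Mobp and Ermn summed, at most 5 of the microglial genes C1qa, C1qb and C1qc, and at most 3 of the endothelial genes Cldn5 and Flt1. This gate held 7575 cells: 2267 Klk6-positive cells, 2658 with 1 or 2 Klk6 UMIs, and 2650 with none, called Klk6-zero here. Every gene contrast below set the Klk6-positive against the Klk6-zero cells of the same barcode set.

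The series measured polyadenylated RNA of dissociated hippocampus from male adult Sprague Dawley rats of 10 to 12 months, wild type by genotype, with a droplet 3' assay. Its 4 titled samples were NC (negative control), MCAO (occlusion of the middle cerebral artery on 1 side, a stroke model), and DEPR and MD, both described as chronic stress. The design text names 20 rats in 2 groups of 10, all with the occlusion and 1 group stressed afterwards, and hippocampi of 5 rats per group. All cells came in 1 matrix whose barcodes carried 4 suffixes, and nothing used here tied a suffix to a title. The suffixes were kept as sets 1 to 4, each reported by itself, so no value below compares control, stroke or stress. Each titled sample has a single library with no replicate. Intervals in the text are 95% and cover counting error only, and no p-value was computed.

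KLK6 is a secreted trypsin-like serine protease of the kallikrein family, made in the central nervous system mainly by oligodendrocytes. It can cleave myelin basic protein and the amyloid precursor protein, and it can activate the protease-activated receptors encoded by F2r and F2rl1. In mouse single-cell atlases, mature oligodendrocytes vary between cells with Klk6, Hopx, Anxa5 and S100b and cells with Ptgds, Apod, Car2 and Grm3.

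Promoters are shown for Klk6 itself, for S100b, the gene that stood highest in the contrast below, and for Fabp7, which was both abundant and high. Each is the 250 bases before the RefSeq start, on the gene's strand, in the assembly GRCr8. The count matrix used Rnor_6.0, so these coordinates belong to RefSeq and not to the deposited files. Capitals mark the 6-letter motif ACAAAG, the similar motif ACAATG and, as the third motif searched, AACAAT, of the kind bound by SOX-family HMG proteins, on either strand. The second and the third share 5 letters and can overlap. The motifs were chosen after the Klk6 sequence had been read.
Klk6 (chr1:103415266-103415515, plus strand): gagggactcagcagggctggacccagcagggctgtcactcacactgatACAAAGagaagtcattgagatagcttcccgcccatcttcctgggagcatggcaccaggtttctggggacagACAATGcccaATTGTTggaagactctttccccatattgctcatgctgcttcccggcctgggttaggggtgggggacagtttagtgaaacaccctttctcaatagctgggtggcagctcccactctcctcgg
S100b (chr20:12381082-12381331, minus strand): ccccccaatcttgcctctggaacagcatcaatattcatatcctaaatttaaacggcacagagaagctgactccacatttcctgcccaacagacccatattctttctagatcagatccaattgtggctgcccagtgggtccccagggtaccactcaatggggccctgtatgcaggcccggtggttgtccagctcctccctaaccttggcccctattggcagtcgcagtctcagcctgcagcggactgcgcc
Fabp7 (chr20:37669356-37669605, plus strand): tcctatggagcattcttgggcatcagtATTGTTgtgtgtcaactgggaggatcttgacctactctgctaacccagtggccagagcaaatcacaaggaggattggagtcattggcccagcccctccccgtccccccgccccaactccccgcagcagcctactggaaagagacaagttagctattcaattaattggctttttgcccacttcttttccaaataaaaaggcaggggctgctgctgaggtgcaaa
The Klk6 window held each of the 3 motifs, as did 0.801% of 24206 promoters with a unique symbol. The motif ACAAAG stood in 15.8% of those promoters, the motif ACAATG in 10.7% and the motif AACAAT in 10.3%, and any of them in 29.4%. The S100b window held none and the Fabp7 window held AACAAT. Of the 15 genes that stood highest, 11 had a promoter in the table and 4 of those held a motif, close to the share in all promoters.

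Klk6 counts in the gate formed a falling series with no gap at the threshold. There were 1592 cells with 1 UMI, 1066 with 2, 639 with 3, 422 with 4 and 311 with 5, and 279 cells had more than 10. The highest count was 58 and the Klk6-positive median was 5. Summed Klk6 in the Klk6-positive cells was 556, 649, 769 and 801 CPM (summed UMIs of the gene, scaled to a common total for each class and set) in sets 1 to 4. Just outside and just inside the threshold, S100b was 386 CPM at the median over sets in cells with 2 Klk6 UMIs and 461 CPM in cells with 3. Fabp7 was 471 and 644 CPM, Rasgrp3 63.4 and 87.1 CPM and Barx2 11.1 and 10.9 CPM. The median depths of these cells were 5907 and 6418 UMIs.

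Klk6-positive cells made up 18.5% of gate cells in set 1 (221 of 1193, exact binomial interval 16.4 to 20.8%), 18.0% in set 2 (401 of 2228, 16.4 to 19.7%), 38.5% in set 3 (706 of 1833, 36.3 to 40.8%) and 40.5% in set 4 (939 of 2321, 38.5 to 42.5%). Sets 1 and 2 overlapped each other, as did sets 3 and 4, and the intervals of the first pair lay below those of the second. Gate cells were also deeper in sets 3 and 4, with medians of 6323 and 6063 UMIs against 5410 and 4965 in sets 1 and 2. With every gate cell thinned to 3000 UMIs, which left out 417 shallower cells, the shares were 4.45, 5.64, 15.3 and 18.3% in sets 1 to 4. Among gate cells of 5000 to 8000 UMIs, a window chosen after the data had been seen, they were 21.3, 26.4, 33.9 and 38.9%. Sets 1 and 2 stayed below sets 3 and 4 in all 3 versions, while set 2 lay nearer to set 3 in the window. Klk6 CPM over all gate cells gave the same division, at 224, 255, 446 and 476 in sets 1 to 4.

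**Figure D1:**
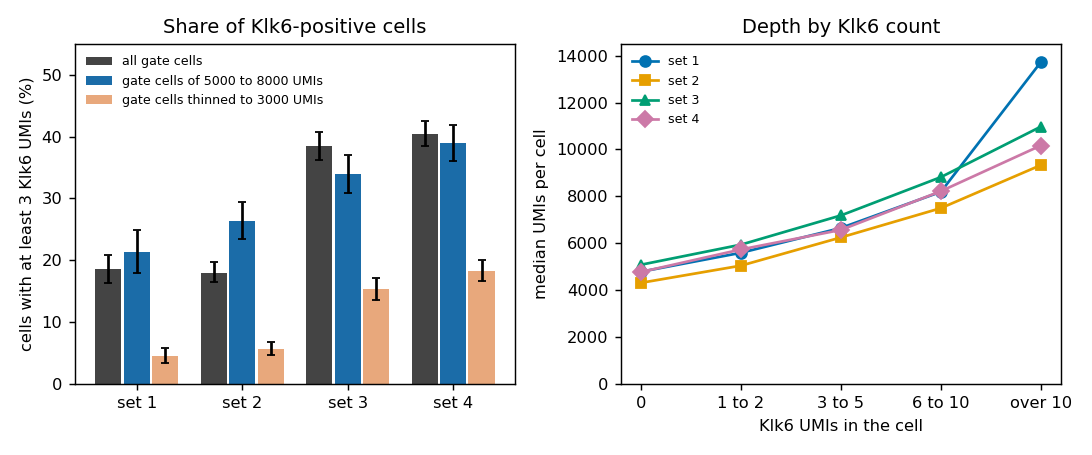
Left, the share of gate cells with at least 3 Klk6 UMIs (percent) in each barcode set, for all gate cells, for cells of 5000 to 8000 UMIs and for cells thinned to 3000 UMIs; error bars are exact 95% binomial intervals for counting error. Right, median UMIs per cell against the Klk6 count of the cell; the share was higher in sets 3 and 4 in each version, and depth rose with the Klk6 count in every set.

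Klk6 UMIs were rare in the gates for other cell types. Of 11626 cells in a microglia gate (at least 15 UMIs of the C1q genes and at most 3 each of the oligodendrocyte and endothelial sums), 1.25% held a Klk6 UMI and 0 held 3 or more, which allows a share of up to 0.0258% by a limit of 3 counts. Of 3086 cells in an endothelial gate (at least 8 UMIs of Cldn5 and Flt1, at most 5 of C1q and 3 of the oligodendrocyte genes), 1.52% held a Klk6 UMI and 0 held 3 or more, which allows up to 0.0972% by the same limit. Both gates kept out cells with more than 3 UMIs of Mag, Mog, Mobp and Ermn, so cells with much oligodendrocyte mRNA were removed before Klk6 was counted, and the counts of 0 were largely set by the gates. Outside the oligodendrocyte gate 245 kept cells had at least 3 Klk6 UMIs, and 200 of these had more than 5 C1q UMIs. In the oligodendrocyte gate 65.0% of cells held a Klk6 UMI. Median depths were 5135, 5048 and 5640 UMIs, but 1998 microglia gate cells and 778 endothelial gate cells had fewer than 3000 UMIs, against 417 oligodendrocyte gate cells. With the remaining cells thinned to 3000 UMIs, 0.613, 0.910 and 50.8% held a Klk6 UMI.

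The label fitted the markers. Beside the rule genes, Mbp and Cnp were found in 100% of Klk6-positive cells, Cldn11 in 100%, Opalin in 99.2% and Aspa in 83.1%. The 6 mature oligodendrocyte markers outside the rule summed to between 27732 and 37316 CPM by set. The 7 oligodendrocyte precursor markers in the gene list summed to 9.88 to 15.5 CPM, with 1 Pdgfra UMI in all, so the cells were not precursors. Schwann cells of peripheral nerve share several myelin genes, and their 6 markers summed to 271 to 393 CPM, against 243 to 403 CPM in Klk6-zero cells. Most of that was Sox10, a transcription factor that oligodendrocytes express too, at 205 to 322 CPM. Cdh19 was at 64.4 to 70.7 CPM against 38.3 to 44.8 CPM, Prx had 4 UMIs and Ncmap was at 0. The 7 microglial markers outside the rule summed to 60.4 to 84.4 CPM, against 82.4 to 119 in Klk6-zero cells and 4344 to 7505 in the microglia gate. Of the C1q genes, which the rule capped, C1qa was at 28.98 to 104 CPM against 46.1 to 143 CPM. The 9 astrocyte markers other than S100b summed to 208 to 405 CPM, of which Aldoc was 109 to 305, and Klk6-zero cells had 140 to 359 CPM. Aldh1l1, which defines astrocytes, was at 0 in Klk6-positive cells, and Aqp4 was at 0.549 to 1.61 CPM. Slc1a3, also a gene of astrocytes, was at 81.9 to 96.1 CPM against 44.6 to 52.1 CPM, Sox9 at 1.65 to 9.12 CPM against 1.15 to 2.17 CPM, and Gfap at 6.34 to 8.78 CPM against 3.47 to 8.30 CPM. The part of astrocyte mRNA in the results was not tested.

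Depth separated the classes as well. The median Klk6-positive cell held 7040, 6533, 8091 and 7587 UMIs in sets 1 to 4, and the median Klk6-zero cell 4783, 4309, 5082 and 4771. A deeper cell is more likely to reach 3 UMIs of any gene, so depth and Klk6 cannot be told apart by the rule alone. Each gene named as higher or lower by rank below was therefore also required to be called among 1018 cells of each class matched on UMI total. Mitochondrial UMIs were 9.19, 8.61, 10.1 and 7.13% at the median in Klk6-positive cells and 10.7, 10.1, 10.3 and 7.75% in Klk6-zero cells. No Klk6-positive barcode sequence occurred in Klk6-positive cells of 2 sets, and 12 occurred among the other cells of another set. Scrublet called 22 of the Klk6-positive cells doublets (0.970%) and 26 of the Klk6-zero cells (0.981%).

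A gene was called higher or lower when its CPM ratio was at least 1.5-fold in the same direction, with an interval that left out 1, in each of the 4 sets. Of 8162 genes with at least 20 UMIs in every set, 103 were higher in Klk6-positive cells (1.26%) and 38 were lower (0.466%), so 73.0% of the calls were higher. With TMM scaling the calls were 84 higher and 52 lower, and 61.8% were higher. In cells matched on depth 31 were higher (0.473%) and 18 lower (0.274%) of 6559 genes. Of the calls in all cells, 30 higher and 11 lower genes were called again there, and no called gene changed sign. In cells of 5000 to 8000 UMIs, 22 were higher (0.348%) and 8 lower (0.127%) of 6317 genes. The median log2 ratio of all measured genes was 0.05.

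The gene that stood highest was S100b, a calcium-binding protein made by astrocytes and by mature oligodendrocytes. It stood at 1271, 1194, 694 and 732 CPM in Klk6-positive cells of sets 1 to 4, and at 242, 253, 51.3 and 34.2 CPM in Klk6-zero cells. Every summed Klk6-positive value lay above every Klk6-zero value, and both classes were higher in sets 1 and 2 than in sets 3 and 4. Single cells were not separated by it. At unequal depth, S100b was found in 65.7% of Klk6-positive and 28.5% of Klk6-zero cells. The ratios were 5.26 (4.82 to 5.75), 4.72 (4.42 to 5.05), 13.5 (11.4 to 16.1) and 21.4 (17.6 to 26.2), a median log2 ratio of 3.08, and 2.50 in matched cells. Thus the ratio was larger in sets 3 and 4, where Klk6-zero cells had less S100b. Over all genes, the class ratio differed at least 2-fold between its highest and lowest set, with intervals that did not overlap, in 193 of 8162 (2.36%). Fabp7, the brain fatty acid-binding protein known from radial glia, astrocytes and precursors, was at 859, 1093, 1014 and 1210 CPM against 298, 293, 250 and 243 CPM. Its median log2 ratio was 1.96, or 1.73 matched, and the microglia gate had 4.05 to 11.03 CPM.

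The other genes of the first rank were less abundant. Barx2, a homeobox transcription factor, had 19.8, 18.0, 14.0 and 17.8 CPM against 4.98, 5.85, 1.86 and 2.99 CPM, a median log2 ratio of 2.28. Rasgrp3, an exchange factor that activates Ras-family GTPases, had 107, 97.7, 156 and 161 CPM against 25.7, 26, 33.4 and 28.9 CPM, a log2 ratio of 2.14. Its level in the microglia gate was 44.5 to 166 CPM, so it was not a gene of oligodendrocytes alone. Olfml1 had 48.3, 43.0, 65.4 and 63.4 CPM against 11.5, 10.6, 21.9 and 15.9 CPM. Its log2 ratio of 2.01 was nearly the same in matched cells, at 1.97.

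Cytoskeletal genes made up several of the calls. Anln encodes anillin, an actin-binding protein that helps septin filaments assemble in myelin, and stood at 125, 148, 108 and 96.4 CPM against 42.1, 44.0, 37.9 and 26.2 CPM. Sept8, a septin, was at 420, 474, 757 and 830 CPM against 226, 224, 409 and 389 CPM, with a median log2 ratio of 0.99. Tubb3, a beta-tubulin best known from neurons, was at 41.2, 59.0, 39.4 and 54.0 CPM against 17.2, 20.6, 14.1 and 16.3 CPM. The 8 other neuronal markers summed to 3.67 to 7.89 CPM in Klk6-positive cells and 3.99 to 10.0 CPM in Klk6-zero cells, so they did not move with Tubb3. Pdlim4, which binds the actin cytoskeleton through PDZ and LIM domains, had a median log2 ratio of 1.60, with 14.3 to 33.0 CPM against 5.20 to 8.17 CPM. Of 27 measured cytoskeleton genes, Anln, Sept8 and Tubb3 were called higher, where 1.26% of all measured genes were, and none lower. The list median was 0.15, or 0.10 matched.

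Among transporters and membrane proteins, Slc5a11, a sodium-coupled myo-inositol transporter, had a median log2 ratio of 1.62 and its smallest value, 0.83, in set 2. Slco3a1, an organic anion transporter, had 1.39, and Tmem63a, a mechanosensitive ion channel linked in people to poor myelination, had 1.30. Atp1b3, a beta subunit of the sodium pump, was at 268, 277, 287 and 279 CPM against 156, 158, 146 and 164 CPM, a steady log2 ratio of 0.80. The remaining genes of the first 15 were the ETS-family transcription factor Etv1 (median log2 ratio 1.48), the phosphatases Dusp26 (1.39) and Ppm1m (1.30) and the cytochrome Cyp2j10 (1.29). In matched cells Etv1 fell to 0.87, and Dusp26, Ppm1m and Cyp2j10 stood at 1.39, 1.11 and 1.11. Etv1 stood at 0.71 in cells of 5000 to 8000 UMIs and was not called there. Slc1a3, the glutamate transporter GLAST, was called higher at 0.86 in all cells but not in matched cells, where it was 0.46, nor with TMM scaling.

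**Figure D2:**
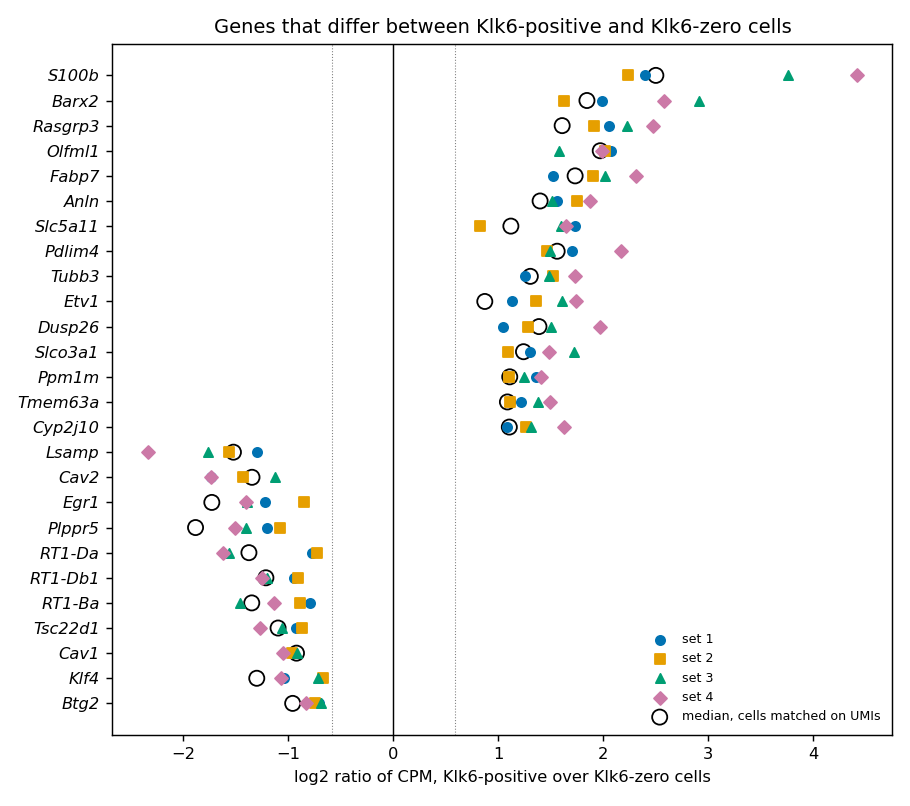
The log2 ratio of CPM, Klk6-positive over Klk6-zero cells, in each barcode set for the 15 genes highest and the 11 lowest among those called in all cells and in cells matched on UMI total; open circles are the median over sets in matched cells and dotted lines mark a ratio of 1.5. All points of a gene lie on 1 side of 0, and S100b spreads most, from 2.24 to 4.42.

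On the lower side, 11 genes met the naming rule. Lsamp, an adhesion protein of the immunoglobulin superfamily, was at 12.6, 10.3, 13.4 and 10.9 CPM in Klk6-positive cells of sets 1 to 4, against 31.0, 30.5, 45.3 and 55.1 CPM in Klk6-zero cells. Every summed Klk6-positive value lay below every Klk6-zero value, and the median log2 ratio was -1.66, or -1.52 matched. The caveolins form the coat of caveolae, small pits of the plasma membrane, and both measured here were lower. Cav1 was at 25.3, 24.4, 25.9 and 24 CPM against 49.4, 47.4, 49.0 and 49.8 CPM, which made it nearly level across sets within each class. Cav2 had a median log2 ratio of -1.58, and Cav1 of -0.97. Endothelial cells are rich in Cav1, at 341 to 473 CPM in the endothelial gate. The other endothelial markers summed to 8.67 to 23.0 CPM in Klk6-positive and 12.1 to 26.4 CPM in Klk6-zero cells. Both caveolin calls held when the gate allowed no Cldn5 or Flt1 UMI and at most 1 C1q UMI. Plppr5, a relative of the lipid phosphate phosphatases, and Tsc22d1, a leucine zipper transcription regulator, had median log2 ratios of -1.30 and -0.99. Neither stayed called in thinned cells, with a stricter cell filter (1000 UMIs, 500 genes, 10% mitochondrial) or in cells of 5000 to 8000 UMIs. In the last they stood at -1.15 and -1.01, and with the stricter gate Plppr5 was not called either. Lsamp was at -1.17 in that depth window and not called there.

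Immediate early genes, the transcription factors and regulators that cells switch on within minutes of a stimulus, stood lower as a list. Of 16 measured members, 5 were called lower, where 0.466% of all measured genes were, and none higher, and 15 lay below the Klk6-zero level in all 4 sets, a pattern of 12.8% of all measured genes. The list median was -0.73, and -0.80 in matched cells. There 5 members were called lower too, though not the same 5, where 0.274% of all genes were. Egr1 was at 251, 337, 235 and 462 CPM against 585, 607, 614 and 1218 CPM, so both classes were highest in set 4. Its ratios in sets 1 to 4 were 0.429, 0.555, 0.382 and 0.380, and its median log2 ratio was -1.31. Klf4 was at 139, 162, 77.3 and 141 CPM against 287, 257, 127 and 295 CPM, and Btg2, which restrains proliferation, at 182, 222, 130 and 186 CPM against 296, 373, 210 and 332 CPM. Egr2 and the orphan receptor Nr4a1 were also called lower in all cells but not in matched cells, where they stood at -1.15 and -0.74. Fos, with 1188, 1563, 919 and 1639 CPM against 1754, 1904, 1538 and 2818 CPM, and Jun, at a median log2 ratio of -0.27, were not called. Atf3 was the exception in sign, with 79.4 CPM against 53.5 CPM in set 3.

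Microglia in this preparation held far more of these mRNAs, with Egr1 at 3063 to 3774 CPM and Btg2 at 5182 to 7143 CPM in the microglia gate. Microglial markers were somewhat lower in Klk6-positive than in Klk6-zero cells, as given above. With the gate of at most 1 C1q UMI and no endothelial UMI, Egr1 stayed called at -1.23, Btg2 at -0.62 and Nr4a1 at -0.79, while Egr2 at -1.12 and Klf4 at -0.95 no longer met the rule in every set. Heat shock genes, also a stress response, had 0 of 11 called. Of all measured genes 1.26% were called higher and 0.466% lower, so that count of 0 says little. Their median was -0.15, and 0 of the 11 had a median log2 ratio above 0, the same direction as the immediate early genes.

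RT1-Da, RT1-Db1 and RT1-Ba encode chains of MHC class II, the antigen-presenting molecules of myeloid cells. RT1-Da was at 40.6, 77.1, 25.4 and 29.9 CPM in Klk6-positive cells against 69.3, 128, 75.4 and 92.0 CPM in Klk6-zero cells, and at 2530 to 5258 CPM in the microglia gate. The median log2 ratios were -1.17, -1.08 and -1.02. With the stricter gate the 3 stood at -0.82, -0.89 and -0.86 and none was called. Without doublets RT1-Da at -1.11 and RT1-Ba at -0.77 were not called, while RT1-Db1 at -0.93 was. In cells of 5000 to 8000 UMIs they stood at -0.65, -0.12 and -0.13, and none was called.

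The partners of the protease were mostly at or near 0. F2r, the thrombin receptor, had 7 UMIs in all Klk6-positive cells and 12 in all Klk6-zero cells, and F2rl1, its trypsin-activated relative, had 0 and 1. At 18819928 UMIs in Klk6-positive cells these receptors were close to the limit of detection. Mbp was at 3966, 4144, 4245 and 4097 CPM against 4006, 4049, 4690 and 4279 CPM, and App at 1049, 1060, 1142 and 1083 CPM against 842, 864, 979 and 1027 CPM; neither was called. Of the 12 other Klk genes and Klkb1, Klk8 alone had a UMI in Klk6-positive cells, a single one, although the 12 Klk genes lie in 1 cluster with Klk6 in the rat assembly GRCr8. Among protease inhibitors, Timp2, which blocks metalloproteinases, was called lower at 25.3, 32.0, 17.9 and 20.5 CPM against 42.5, 52.0, 36.4 and 47.2 CPM, but not in matched cells. Spint2, an inhibitor of serine proteases, stood at 39.5, 62.0, 80.7 and 93.7 CPM against 37.2, 42.5, 39.8 and 45.2 CPM. It was not called, and its ratio fell short of 1.5 in sets 1 and 2.

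Genes known in mouse to go with Klk6 followed in part. Of the 11 measured, S100b was the only one called. The list median was 0.31, and 0.11 over the 9 measured in matched cells. Hopx, a homeodomain protein without DNA binding, was at 29.1, 33.4, 52.5 and 77.2 CPM against 9.19, 7.80, 42.4 and 30.6 CPM, with a median log2 ratio of 1.5 but too small a ratio in set 3. Anxa5 was at 5.49, 3.67, 13.2 and 12.1 CPM against 4.60, 2.38, 7.06 and 6.97 CPM. Of the 11, 6 had a median log2 ratio above 0. Cd9, a tetraspanin on the same list, went the other way, at 1621 to 2077 CPM against 2156 to 3470 CPM, without being called. Anxa2, Crip1, Vim and Sgk1 also had median log2 ratios below 0, at -2.14, -0.73, -0.61 and -0.11.

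Of the 10 measured genes that mark the other end in mouse, Apod, a lipocalin that carries lipids, was called higher. It stood at 6485, 7701, 11204 and 12165 CPM against 3766, 4568, 6093 and 5942 CPM. All 4 sets agreed closely, with a median log2 ratio of 0.83 and 0.81 matched. Ptgds, the prostaglandin D synthase, was at 17915, 19947, 11650 and 11377 CPM against 25877, 29881, 11570 and 11570 CPM. It was thus lower in Klk6-positive cells of sets 1 and 2 and level in sets 3 and 4. Hapln2, a link protein of the node of Ranvier matrix, was at 1467, 1466, 791 and 817 CPM against 900, 1001, 462 and 452 CPM, with a median log2 ratio of 0.74 and no call. Grm3 and Opalin had median log2 ratios of -0.12 and -0.27.

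Myelin and membrane lipid genes had few calls. Of all measured genes 1.26% were called higher and 0.466% lower, so a count of 0 in a short list says little. None of 11 measured myelin genes was called and their median was -0.01, with Mal at -0.35. Mog, Mag and Mobp, which the rule used, were left out of them. Of 17 sphingolipid and fatty acid genes, the elongase Elovl5 was called higher at 1.05, with 9.88 to 14.5 CPM against 3.06 to 8.17 CPM, and was not measured in matched cells. The list median was 0.27, and 0.16 over the 13 measured in matched cells. In all cells 12 of the 17 lay above the Klk6-zero level in all 4 sets, a pattern of 23.99% of all measured genes. Enpp2, autotaxin, had 0.62, or 0.49 matched, and Ugt8, which makes galactosylceramide, 0.27, or 0.12 matched. None of 14 cholesterol synthesis genes was called and their median was -0.06, or -0.23 matched. None of 16 adhesion and node genes was called, at a median of 0.22, and Gjb1, a gap junction connexin of the myelin sheath, had 318, 408, 541 and 612 CPM against 231, 239, 356 and 351 CPM. The median of 9 ion channel and pump genes was 0.41, and 0.20 in matched cells. Atp1b3 was called, and the chloride cotransporter Slc12a2 stood at 0.41, or 0.20 matched.

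**Figure D3:**
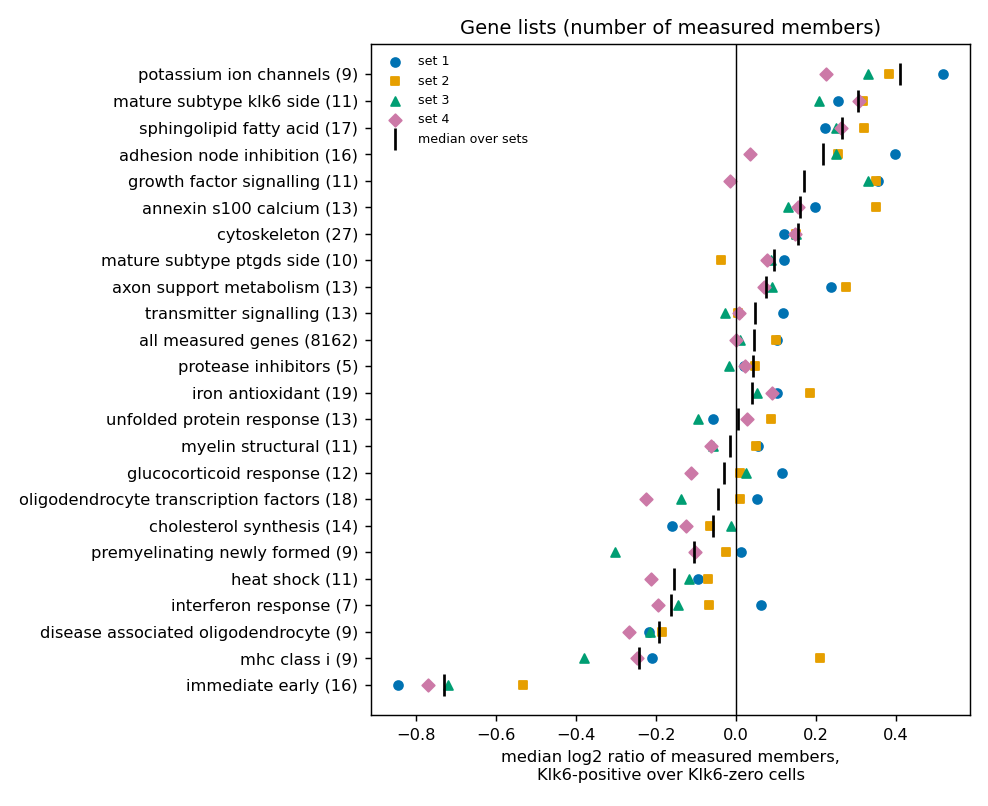
Median log2 ratio of CPM, Klk6-positive over Klk6-zero cells, over the measured members of each gene list, with the number of members in brackets, for each barcode set and as the median over sets (black bar). Immediate early genes lie lowest at -0.73, ion channels and pumps highest at 0.41, and all measured genes at 0.05. In matched cells, not plotted, the ion channel and pump median was 0.20, below the annexin, S100 and calcium list at 0.26.

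In all cells, none of 9 class I antigen presentation genes, 7 interferon genes, 12 glucocorticoid response genes or 9 genes of disease-associated oligodendrocytes was called between the classes. Of all measured genes 1.26% were called higher and 0.466% lower, so counts of 0 in short lists say little. In matched cells 1 interferon gene was called lower, where 0.274% of all genes were. The interferon median was -0.16 in all cells and -0.39 over the 5 genes measured in matched cells. The class I list had a median of -0.24 and the disease-associated list of -0.19. Il33 had 35 UMIs against 27 and was below the minimum. In the growth factor list, Tgfb2, a ligand of the TGF-beta family, was called lower, with 1.65 to 8.99 CPM against 6.89 to 30.2 CPM. It was not measured in matched cells and was not called with Klk6 of 5 UMIs or more. Pdgfa, a mitogen for oligodendrocyte precursors, was at 219 to 251 CPM against 147 to 168 CPM without a call.

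The named genes were also followed along the Klk6 count of the cell. That count chose the classes and the classes chose the genes, so the steps are a description and support nothing. From cells with 0 to those with 1 to 2, 3 to 5 and 6 to 10 Klk6 UMIs, CPM rose at each step in all 4 sets for 14 of the 15 highest genes, Ppm1m being the exception. Depth rose along the same steps, at medians of 4647, 5545, 6669 and 8326 UMIs, and the steps were not matched on it. S100b followed a different course by set. In cells with 3 to 5 Klk6 UMIs it was at 1096, 1039, 164 and 197 CPM in sets 1 to 4, and in cells with more than 10 it was at 2165, 1631, 2026 and 1718 CPM. The sets therefore differed widely at low Klk6 and much less at the top, where set 1 had 8 cells and set 2 had 17. Apod reached 7750, 8819, 15256 and 15109 CPM in cells with more than 10 Klk6 UMIs. Lsamp, Cd9, Nfasc, Cd63 and Nr4a1 fell at each of the first steps in all 4 sets, and Lsamp came to 4.79, 2.91, 14.1 and 6.03 CPM in cells with 6 to 10.

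**Figure D4:**
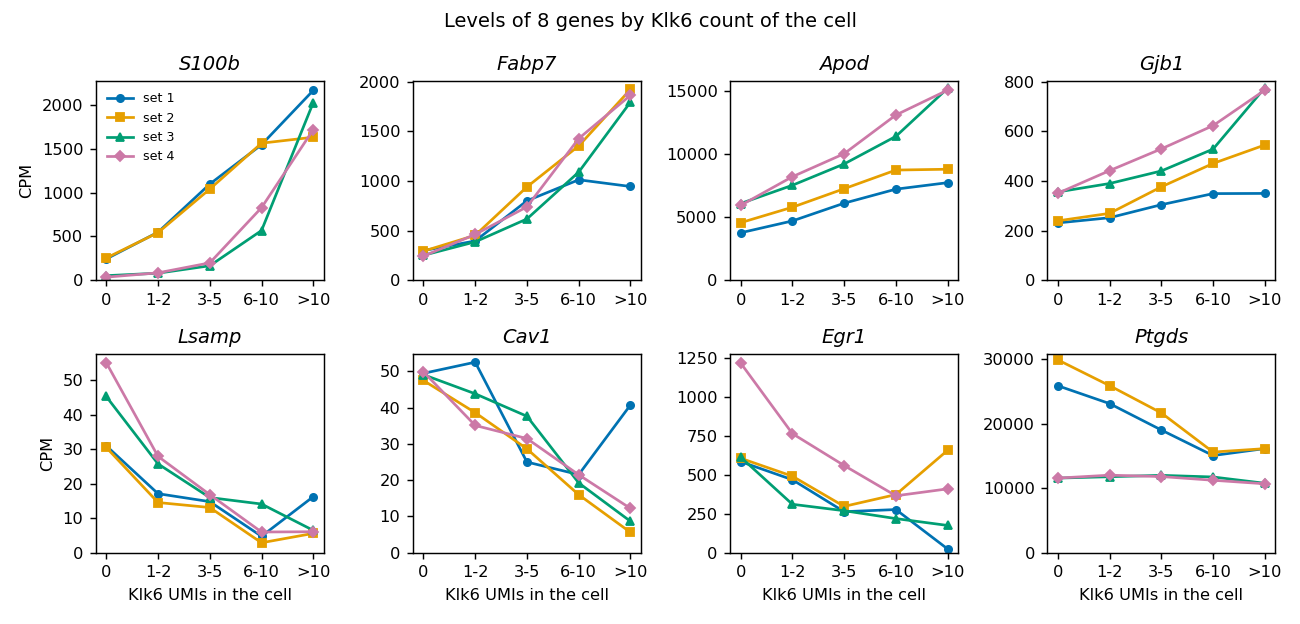
CPM (linear axes from 0) of 8 genes in gate cells grouped by their Klk6 UMIs, 1 line per barcode set. S100b, Fabp7, Apod and Gjb1 climb with Klk6 and Lsamp, Cav1 and Egr1 are lower at 3 to 5 Klk6 UMIs than at 0 in every set, while Ptgds declines in sets 1 and 2 and is level in sets 3 and 4; the last point of sets 1 and 2 rests on 8 and 17 cells.

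Klk6-positive cells also differed between sets. Of 7698 genes tested, 627 (8.14%) differed at least 2-fold between their highest and lowest set, with an interval that left out 1. Tested genes had at least 50 UMIs in those 2 sets together, so a gene could enter through its highest set alone. The order was often shared by pairs of sets, with 200 genes higher in both sets 1 and 2 than in either of sets 3 and 4, and 257 the reverse. Of the 464 such genes measured in Klk6-zero cells, 213 differed at least 2-fold in the same direction between the same sets there and 1 in the opposite direction. Which titled samples these sets are was not established, so the differences carry no treatment label.

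Genes induced by glucocorticoids, the adrenal stress hormones, differed between sets. The list was chosen with earlier results of these data known, so its counts are a description. Of 12 measured, 10 lay apart by that rule, against 8.14% of all genes tested. Sult1a1 entered through sets 1 and 2 and was below the minimum of the class contrast. Of the 12, 11 were higher in both sets 1 and 2 than in sets 3 and 4, namely the 10 that lay apart and Klf9, which did not. Among the 627 genes that lay apart, 200 had that order. The share of all tested genes with that order was not computed. Sgk1, a kinase induced by these hormones, was at 2087, 2012, 342 and 340 CPM in Klk6-positive cells and at 1953, 2027, 397 and 410 CPM in Klk6-zero cells. Fkbp5, which binds the receptor complex and dampens it, was at 99.4, 87.7, 15.1 and 16 CPM. Sult1a1, a sulfotransferase, was at 157, 176, 1.13 and 0.385 CPM, and Zbtb16 at 66.4, 61.0, 9.66 and 9.76 CPM. Tsc22d3, a classic target, did not follow, at 153, 183, 135 and 158 CPM. In the microglia gate Fkbp5 went the same way, at 109, 122, 16.2 and 19.2 CPM, and Sgk1 the other way, at 616, 713, 1142 and 1134 CPM.

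**Figure D5:**
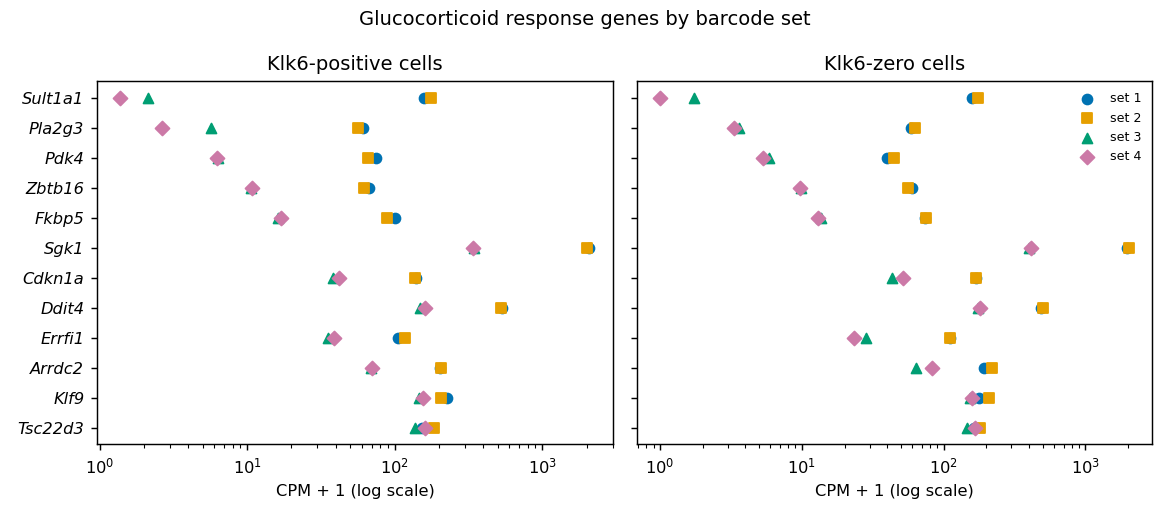
CPM + 1 on a log axis for the 12 measured glucocorticoid response genes in each barcode set, in Klk6-positive (left) and Klk6-zero cells (right). Sets 1 and 2 lie above sets 3 and 4 in both panels for most genes, with Tsc22d3 nearly level.

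Interferon genes lay apart in 7 of 7 cases, where 8.14% of all genes tested did. This list and those that follow were also chosen with earlier results of these data known. Here too members could enter through their highest set alone, Irf1, RT1-S3, Tap1 and Psmb9 among them, so these counts are a description. Ifi27 was at 256, 228, 30.6 and 30.7 CPM, and Ifitm3 went otherwise, at 7.14, 3.0, 11.4 and 8.99 CPM. In class I presentation 6 of 9 lay apart, with B2m, the light chain, at 718, 776, 264 and 412 CPM, and RT1-A1 reversed at 17.6, 30.02, 34.8 and 52.0 CPM. Of 11 heat shock genes 4 lay apart, in differing orders. Hspa1b, at 102, 94.4, 341 and 557 CPM, Hspb1 and Dnajb1 were highest in set 4, and Cryab was highest in set 2, at 2744, 3326, 1625 and 1929 CPM. No myelin structural gene of 11 lay apart, but at a share of 8.14% of all genes tested a count of 0 in so short a list says little.

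The 10 largest ratios between sets held genes of several kinds. Bmp4, a signalling ligand, had 124, 188, 0 and 1 UMIs in sets 1 to 4. Its level in set 1 was about 141-fold the limit of 3 counts in set 3, and the interval of that ratio began at 113. Galnt16, a glycosyltransferase, was at 30.2, 29.4, 0.322 and 0.642 CPM. Alox15 was at 3.84, 22.7, 0 and 0 CPM. These genes, Sult1a1 and Hbb stood higher in both sets 1 and 2 than in sets 3 and 4, and did so in Klk6-zero cells too. Others are best known from other cells, and where their UMIs came from was not tested. The neutrophil genes S100a8 and S100a9 reached 60.04 and 147 CPM in set 2 and at most 1.10 CPM elsewhere, and haemoglobin Hbb was at 134, 468, 2.41 and 3.98 CPM. Jchain of plasma cells reached 15.4 CPM in set 4. Emp3 was highest in set 4 at 9.76 CPM and G0s2 in set 2 at 43.7 CPM. Neutrophil markers summed to 208 CPM in Klk6-positive cells of set 2 and to at most 1.28 CPM in the other sets, and to 173 CPM in Klk6-zero cells of set 2.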

How the data were processed

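The authors deposited 1 matrix of UMI counts for all cells, whole numbers with no normalisation, of 32623 genes by 31638 barcodes (180847756 UMIs). Per the file headers it was written by Cell Ranger 5.0.0, and the submitters' processing notes name STAR and the build Rnor_6.0. For the gene annotation and for cell calling, nothing is stated in the sources at hand. Per the labels' protocols, hippocampus was enzymatically dissociated and libraries were made with a version 3 kit for 3' ends.

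Barcode sets were the 4 suffixes and had 43640627, 46669201, 36242408 and 54295520 UMIs. Of 31542 distinct barcode sequences, 96 occurred in more than 1 set. Counts were summed per class and set and divided by the summed total to give CPM. Ratios carry exact conditional binomial intervals and shares Clopper-Pearson intervals, both for counting error only. For each of 147 symbols held by more than 1 gene, the entry with most UMIs stood for the symbol. Doublets were called per set with Scrublet (scanpy 1.11.5, expected share 6%) and kept in the main values.

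Cells were matched within each set in bins of 0.25 log2 UMIs (seed 1). TMM factors came from edgeR 4.0.16, and no edgeR test was run. Python 3.11.15 with scipy 1.17.1, numpy 2.4.6 and pandas 2.3.3 and R 4.3.3 were used, and matplotlib 3.10.9 for plots. The procedure was tested on simulated data. The genes named are the 15 highest and up to 15 lowest by median log2 ratio over sets among genes called alike in all and in matched cells. Rule genes and unnamed loci are left out. Values of some list members are not reported here. In each of 25 gene lists (442 entries, of which 11 were not in the gene list) called members and up to 3 uncalled members with most UMIs were also named, and across sets the 10 largest ratios. Some further list members were named after their values had been seen. The members, lists and markers were chosen with earlier results of these data known. Alternatives covered depth, scaling, doublets, filters, thresholds, gates and leaving out each set.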

Additional observations from a re-analysis of the deposited data

Results flagged for a closer look

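A signal appeared in cells that the comparisons above did not use. Outside the gate, 245 of the 2512 kept cells with at least 3 Klk6 UMIs were found (9.75%), 35, 64, 52 and 94 of them in sets 1 to 4. They held a median of 73 UMIs of Mag, Mog, Mobp and Ermn, and 1 of them had fewer than 8. Of the 245, 200 had more than 5 C1q UMIs and 47 had more than 3 UMIs of Cldn5 and Flt1. Scrublet called 153 of them doublets, and their median depth was 12085 UMIs, against 7487 in Klk6-positive cells of the gate. Another 18 barcodes with at least 3 Klk6 UMIs failed the cell filter, all 18 with more than 20% mitochondrial UMIs.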

How the results depend on the processing

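The 103 higher and 38 lower calls became 31 and 18 in cells matched on depth, 41 and 14 in cells thinned to 3000 UMIs, and 22 and 8 in cells of 5000 to 8000 UMIs, an alternative added after seeing the data. A 2-fold limit left 38 and 7. Lower calls were 21 with Klk6 of 2 UMIs or more and 20 with the stricter gate. Leaving out 1 set gave 121 to 153 higher and 47 to 70 lower calls against 103 and 38, since calls then needed 3 sets; the lower count was 70 without set 1 and 59 without set 2. Counts of higher calls without a single set were 153, 120, 123 and 121. The other alternatives gave counts within 1.5 times, and no called gene changed sign under any. The share of Klk6-positive cells, 29.9%, was 11.7% thinned, 35.5% with a stricter cell filter, 28.4% in all barcodes, 15.9% and 44.0% with a threshold of 5 and 2 UMIs, 31.5% with a gate of 20 UMIs and 31.6% in the depth window. The causes were not tested. Of the 15 genes named as highest, S100b, Barx2, Rasgrp3, Olfml1, Fabp7, Anln, Dusp26, Slco3a1, Tmem63a and Cyp2j10 were also called in the depth window, and Slc5a11, Pdlim4, Tubb3, Etv1 and Ppm1m were not, nor were Sept8, Atp1b3 and Apod. Of the 11 lowest, Egr1, Klf4, Cav1 and Cav2 were called there, and Lsamp, Btg2, Plppr5, Tsc22d1, RT1-Da, RT1-Db1 and RT1-Ba were not. The immediate early median ran from -0.86 to -0.63 over 18 alternatives. Medians of several lists between classes changed sign under some. Among them were the glucocorticoid, interferon, myelin, class I, adhesion and node, and annexin, S100 and calcium lists, and the list that marks the Ptgds end in mouse. Rare transcripts such as F2r are limited by depth. No paired analysis was possible because the titled samples have no replicates and no label ties a barcode set to a sample, so the sets were not used as replicates; the class ratios were taken within each set.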

Other observations

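Other genes called higher both in all cells and in cells matched on depth, and named after their values were seen, held further functions. Il18, a cytokine of the interleukin-1 family, had a median log2 ratio of 1.15, or 1.08 matched. Cd59, which protects cells from complement lysis, had 0.92, and 0.94 matched. Fabp3, another fatty acid-binding protein, had 1.17, and 1.10 matched. Celsr2, an adhesion receptor of the cadherin family, had 1.17, and 1.28 matched. Sgk3, a kinase related to Sgk1, had 0.93, and 0.67 matched, and Pdlim1, a relative of Pdlim4, 0.92, and 1.07 matched. In cells of 5000 to 8000 UMIs Celsr2 was called, and Il18, Cd59, Fabp3, Sgk3 and Pdlim1 were not. Il18 was at 33.5 to 57.5 CPM in Klk6-positive cells and at 126 to 140 CPM in the microglia gate. Cd59 was at 72.9 to 102 CPM in Klk6-positive cells and at 467 to 704 CPM in the endothelial gate. Neither was therefore a gene of oligodendrocytes alone.

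Other genes whose class ratio differed at least 2-fold between sets, with intervals that did not overlap, included Enpp6. Enpp6, a marker of newly formed oligodendrocytes, was at 17.0, 28.3, 29.0 and 35.7 CPM in Klk6-positive cells against 3.45, 4.33, 21.6 and 17.9 CPM in Klk6-zero cells. Marcks, an actin-binding substrate of protein kinase C, was at 16.5, 34, 22.9 and 24 CPM against 32.6, 38.1, 125 and 113 CPM. Cntf, a neurotrophic cytokine, was at 14.8, 15.01, 24.8 and 29.4 CPM against 8.43, 7.15, 6.69 and 3.32 CPM, so its ratio was largest in set 4. Of 69 measured ribosomal protein genes 67 had a median log2 ratio below 0, none was called, and their median was -0.21, or -0.09 matched.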
